A study of Mus musculus with 24 samples.

Results

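The immediate early genes described here are Fos, Jun, Junb, Egr1, Ier2, Ier3, Dusp1, Atf3, Zfp36 and Btg2, taken by gene symbol. They are 10 of the 23337 genes listed in the total RNA count tables. All 10 passed the filter on low counts in total RNA, and 8 of 10 passed it among ribosome-protected fragments, where Egr1 and Ier3 had too few reads. Levels are given as CPM, read counts scaled to a common library size by TMM factors, and fold changes as log2 values with their standard error (SE).

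Immediate early genes are transcribed within minutes of a growth factor, cytokine or stress signal, from promoters that are already open and without the need for new protein. MAP kinases act on the transcription factors SRF with its ternary complex partners, CREB and others to switch them on. Most of their mRNAs carry AU-rich elements and are short-lived, so their level can fall as fast as it rises. In macrophages the same set responds to microbial products and to fresh serum or growth factor.

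The study sequenced footprints, the stretches of mRNA shielded by ribosomes (RPF), and total RNA from the same cultures of bone-marrow-derived macrophages, to ask what functional APOBEC1 does to translation. APOBEC1 deaminates cytidine in certain mRNAs, which turns C into U. Apobec1 -/- cultures (KO1 to KO6) were compared with wild-type cultures (WT1 to WT6), 6 of each, with 1 RPF and 1 total RNA library per culture. Batch labels place KO1, WT1, WT2 and WT3 in batch 1, KO2, KO3, KO4 and WT4 in batch 2, and KO5, KO6, WT5 and WT6 in batch 3.

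Both genotypes were on strain C57BL/6J and came from littermate or age-matched mice, 6 to 12 weeks old. The labels give Apobec1 -/- as the genotype of the mice, not as a deletion in macrophages alone. Marrow cells of both genotypes were grown with 20 ng/mL M-CSF, which makes marrow precursors mature into macrophages, over 7 days, and part of the medium was renewed every 3 days with 40 ng/mL M-CSF. How long before harvest the medium was last renewed was not given in the sources used here. Labels do not say whether each culture came from its own mouse, so the p-values reflect the spread among these cultures alone, which may be technical.

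Gene counts per library were 5077478 to 12059361 for total RNA. For RPF they were 29561 to 3714912, and the libraries of batch 3 were the shallowest, at 29561 to 223504. A level of 3 counts was 101 CPM in the RPF library of WT6 and 33.0 CPM in that of KO6, against at most 13.8 CPM in the other RPF libraries. Macrophage markers summed to at least 15356 CPM in every total RNA library, with 9 of 11 listed markers in the tables and none at 0 throughout. Neutrophil markers, 12 of 12 in the tables, summed to 66.8 to 525.7 CPM in KO and 57.4 to 590 CPM in WT cultures, and to 441 to 590, 153 to 590 and 57.4 to 66.8 CPM in batches 3, 2 and 1. In footprints 2 of 7 tested neutrophil markers were called lower in KO than in WT cultures. Batch 3 also differed in sex-linked RNA, with 172 to 386 counts of Xist, against 2 to 11 in the other batches. The Y-linked gene Ddx3y had 0 to 1 counts in batch 3, 374 to 639 in batch 2 and 1038 to 1694 in batch 1. Sex therefore cannot be told apart from batch in any comparison with batch 3. Apobec1 had 604 to 1276 CPM of total RNA in KO and 313 to 474 CPM in WT cultures, and 0 to 24.4 CPM of footprints in KO against 59.6 to 102 CPM in WT cultures. In bulk samples, fewer cells of a type and less RNA per cell cannot be told apart.

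Promoter sequences are shown for the members whose RNA differed most between batches, because they hold the letters that serum, cAMP and cytokine signals are known to read. RefSeq promoters of build GRCm38.p6 were found for 8 of the 10 genes. Each line gives the 250 bases before the start, 5′ to 3′ on the gene's own strand. Capitals mark a CArG box (the SRF site), TGACGTCA or its core TGACG (the CRE read by CREB and ATF factors), GCGNGGGCG (the EGR site) and the NF-kB site, on either strand. Zfp36 is at chr7:28379229-28379478 on the minus strand, Btg2 at chr1:134079156-134079405 on the minus strand, Dusp1 at chr17:26508473-26508722 on the minus strand and Ier3 at chr17:35821463-35821712 on the plus strand.
Zfp36: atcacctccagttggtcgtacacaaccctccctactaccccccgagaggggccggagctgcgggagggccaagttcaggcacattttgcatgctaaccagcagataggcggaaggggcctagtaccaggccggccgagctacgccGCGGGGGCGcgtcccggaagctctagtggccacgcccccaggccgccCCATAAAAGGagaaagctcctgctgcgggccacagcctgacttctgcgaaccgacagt
Btg2: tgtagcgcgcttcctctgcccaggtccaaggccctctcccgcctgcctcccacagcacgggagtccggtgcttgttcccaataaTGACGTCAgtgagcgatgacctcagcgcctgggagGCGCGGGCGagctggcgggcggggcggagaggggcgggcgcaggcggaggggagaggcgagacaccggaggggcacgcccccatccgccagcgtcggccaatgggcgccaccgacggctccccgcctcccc
Dusp1: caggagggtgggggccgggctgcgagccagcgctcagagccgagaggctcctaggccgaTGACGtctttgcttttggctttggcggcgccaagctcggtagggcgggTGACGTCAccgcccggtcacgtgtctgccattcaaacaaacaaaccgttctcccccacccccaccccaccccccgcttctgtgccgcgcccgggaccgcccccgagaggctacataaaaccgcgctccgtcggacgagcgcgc
Ier3: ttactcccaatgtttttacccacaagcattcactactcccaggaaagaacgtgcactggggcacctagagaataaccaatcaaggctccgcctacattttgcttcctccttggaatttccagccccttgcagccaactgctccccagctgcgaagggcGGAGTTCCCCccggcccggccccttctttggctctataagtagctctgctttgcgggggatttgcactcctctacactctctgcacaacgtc

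Among the 8 windows, the CArG box was in Zfp36 alone, 58 to 49 bases before its start. Of 32851 promoters of the same length, 1.47% held one. Egr1 and Ier2 had no window, and bases outside the windows, such as those farther upstream, were not searched. A missing match therefore does not show that a gene lacks the site. TGACGTCA was in Dusp1 and Btg2, against 1.55% of all promoters, and its core TGACG, which lies inside it, was in Fos, Junb, Dusp1, Atf3 and Btg2, against 17.8%. GCGNGGGCG was in Zfp36 and Btg2, against 4.70%. The NF-kB site was in Fos and Ier3, against 3.90%. A search for TGANTCA, a common form of the AP-1 site, matched none of the 8 windows and 6.75% of all promoters. Variant forms of that site, which the pattern does not match, were not searched for. GGGCGG, the GC box, was in 7 of 8 windows against 32.7%, TATAA in Fos and Ier3 against 22.8%, and CACGTG in Dusp1 against 6.02%. Matches of this kind are letters in a window and do not show that a factor was bound.

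No immediate early gene passed the threshold between KO and WT cultures. None of the 10 genes passed the edgeR quasi-likelihood test (adjusted p under 0.05) for KO over WT in total RNA, where 0.0183% of all 10942 genes tested did. None of 8 passed in footprints, where 0.0832% of 7208 genes did, and none of 8 passed in footprints relative to total RNA, where 0.0139% of 7203 genes did. At an unadjusted p under 0.05 the counts were 1, 0 and 0, against 512 of 10942, 614 of 7208 and 181 of 7203 genes. DESeq2 called 0 members in each, against 11 of 19395, 3 of 12660 and 8 of 19443 genes. The median log2 change of the members in total RNA was 0.10, against -0.0016 over all genes tested. The fitted changes in total RNA lay between log2 -0.81 for Ier3 and 0.40 for Egr1, as the plot of fitted changes shows.

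**Figure D1:**
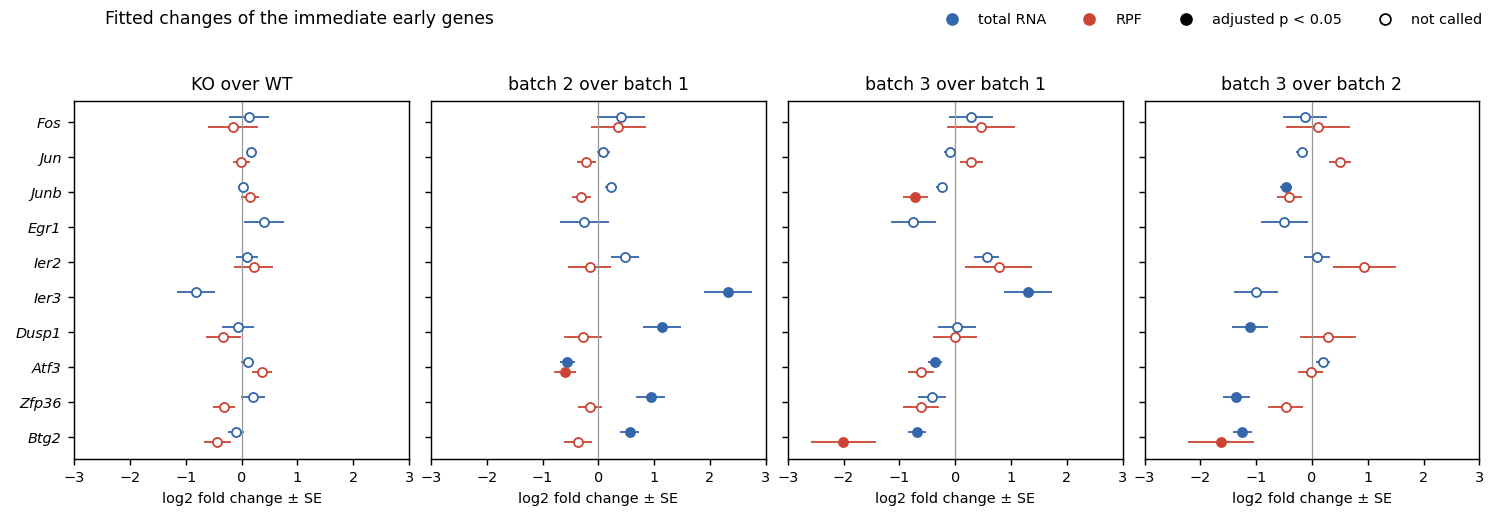
Fitted log2 fold change (horizontal axis, with bars of 1 SE) of each immediate early gene (rows) in total RNA (blue) and RPF (red), for KO over WT and for each pair of batches; filled points passed an adjusted p of 0.05 in edgeR. No point is filled for KO over WT, and Ier3 reached 2.32 for batch 2 over batch 1.

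The AP-1 subunits overlapped between genotypes. Fos, the partner that gives AP-1 its strong DNA binding, had 76.0, 139 and 210 CPM of total RNA in KO (lowest, median, highest) and 68.2, 110 and 184 CPM in WT cultures. The ranges overlapped almost wholly, and KO over WT was log2 0.13 (SE 0.35, edgeR adjusted p = 0.955). Jun, which pairs with Fos or with itself, had 124, 135 and 150 CPM in KO and 92.7, 120 and 143 CPM in WT cultures, at log2 0.17 (SE 0.09, edgeR adjusted p = 0.859). Junb, a Jun relative that also restrains Jun, had 99.4, 121 and 163 CPM in KO and 104, 119 and 136 CPM in WT cultures. Atf3, a stress-induced repressor that dampens inflammatory transcription in macrophages, had 401, 415 and 503 CPM in KO and 279, 512 and 559 CPM in WT cultures.

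Ier3, an early response gene that affects cell survival and NF-kB signalling, had the lowest p of the 10 in total RNA. It had 6.61, 12.5 and 20.0 CPM in KO and 4.05, 8.12 and 55.7 CPM in WT cultures, and only WT4 lay above the KO range. KO over WT was log2 -0.81 (SE 0.35, unadjusted p = 0.0386, edgeR adjusted p = 0.859). The KO minus WT difference in mean log2 CPM was 0.19 in batch 1, -1.91 in batch 2 and -0.25 in batch 3, so the fitted value rested on batch 2, where WT4 was the sole WT culture. Without WT4 the fitted value was log2 -0.14 (edgeR adjusted p = 0.999). Neutrophil markers in WT4 summed to 590 CPM, against at most 199 CPM in the other cultures of batch 2, and the part of such cells in the Ier3 level was not tested.

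In footprints the lowest p was that of Atf3. It had 166, 229 and 289 CPM in KO and 134, 204 and 341 CPM in WT cultures, at log2 0.36 (SE 0.18, edgeR adjusted p = 0.606), and the within-batch differences were 0.18, 0.68 and 0.20. For footprints relative to RNA the lowest p was that of Zfp36, which encodes tristetraprolin, a protein that binds AU-rich elements and hastens decay of Tnf and other mRNAs. The ratio of footprint to RNA CPM of Zfp36 was 0.536, 0.782 and 1.62 in KO and 0.698, 1.90 and 3.87 in WT cultures. The fitted change was log2 -0.52 (SE 0.32, edgeR adjusted p = 1.00). The authors' deposited DESeq2 table gives Zfp36 a log2 fold change of 1.05, with p = 0.00328 and adjusted p = 0.876. It gives each of the other members an adjusted p of 1. The direction of its fold change is not stated. Whether it covers total RNA, footprints or their ratio is also not stated in the sources used here.

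Ier3 footprints rested on few reads, with 0 to 21 counts in KO and 0 to 83 in WT libraries, and were left untested by the filter. With no filter, Ier3 footprints were called lower in KO (log2 -1.90, SE 0.39, edgeR adjusted p = 3.75e-04), in a fit that called 159 of 12660 genes. WT4 held 83 footprint counts of Ier3, against 0 to 6 in the other WT libraries. DESeq2, which sets its own filter, gave log2 -1.63 with an adjusted p of 0.887.

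Between batches, some of these genes were called in total RNA, at a larger share than all genes only in batch 2 over batch 1. Without WT4, 1 of 10 was called in that comparison, against 1345 of 11043 genes, so the members' share was then not larger. In batch 2 over batch 1, 5 of the 10 passed the edgeR test, where 23.5% of all genes did: Ier3, Dusp1, Zfp36 and Btg2 were higher and Atf3 was lower. In batch 3 over batch 1, 3 of 10 passed, against 45.3% of all genes, a smaller share than the background. In batch 3 over batch 2, 4 of 10 passed and all 4 were lower, against 49.2% of all genes, also a smaller share. The median change of the 10 was log2 0.44, -0.17 and -0.48 in the 3 comparisons, against 0.0044, 0.010 and 0.014 over all genes.

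Dusp1 and Zfp36, which act to end the early response, and Btg2 were higher in batch 2 than in batch 1. Dusp1, the phosphatase that switches off p38 and JNK, had 39.2, 18.0, 10.6 and 34.9 CPM in KO5, KO6, WT5 and WT6 of batch 3. It had 52.0, 45.0, 56.3 and 67.1 CPM in KO2, KO3, KO4 and WT4 of batch 2. It had 23.4, 25.03, 27.5 and 26.0 CPM in KO1, WT1, WT2 and WT3 of batch 1. Every batch 2 culture lay above every culture of the other batches. Dusp1 rose by log2 1.14 in batch 2 over batch 1 (SE 0.35, edgeR adjusted p = 0.0372) and fell by 1.11 on the log2 scale in batch 3 over batch 2 (SE 0.33, edgeR adjusted p = 0.0163).

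Zfp36 was also highest in batch 2. It had 28.2, 37.1, 15.4 and 38.4 CPM in KO5, KO6, WT5 and WT6, 95.6, 58.8, 97.4 and 64.7 CPM in KO2, KO3, KO4 and WT4, and 37.0, 38.9, 38.2 and 38.0 CPM in KO1, WT1, WT2 and WT3. The cultures of batch 3 spanned 2.49-fold, while those of batch 1 lay within 1.05-fold of each other. Zfp36 was higher in batch 2 than in batch 1 (log2 0.94, SE 0.26, edgeR adjusted p = 0.0227) and lower in batch 3 than in batch 2 (log2 -1.36, SE 0.24, edgeR adjusted p = 7.91e-04).

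Btg2, which recruits the CCR4-NOT deadenylase and restrains proliferation, separated all 3 batches without overlap. Total RNA was 28.8, 46.7, 54.6 and 47.7 CPM in KO5, KO6, WT5 and WT6 of batch 3. It was 115, 94.3, 105 and 98.9 CPM in KO2, KO3, KO4 and WT4, and 77.7, 60.7, 75.9 and 75.2 CPM in KO1, WT1, WT2 and WT3. Btg2 rose by log2 0.56 in batch 2 over batch 1 (SE 0.17, edgeR adjusted p = 0.0296), fell by 0.69 in batch 3 over batch 1 (SE 0.16, edgeR adjusted p = 0.00337) and fell by 1.25 in batch 3 over batch 2 (SE 0.16, edgeR adjusted p = 5.48e-05).

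Ier3 and Atf3 moved opposite ways. Ier3 had 13.7, 9.26, 9.21 and 19.6 CPM in KO5, KO6, WT5 and WT6 of batch 3. It had 11.3, 20.0, 13.8 and 55.7 CPM in KO2, KO3, KO4 and WT4 of batch 2, and 6.61, 4.05, 7.03 and 6.64 CPM in KO1, WT1, WT2 and WT3 of batch 1. All values of batches 3 and 2 lay above those of batch 1, and WT4 stood far above the other cultures, which had at most 20.0 CPM. Ier3 rose by log2 2.32 in batch 2 over batch 1 (SE 0.43, edgeR adjusted p = 0.00432) and by 1.31 in batch 3 over batch 1 (SE 0.43, edgeR adjusted p = 0.0302). Atf3 had 435, 401, 484 and 379 CPM in KO5, KO6, WT5 and WT6, and 414, 412, 416 and 279 CPM in KO2, KO3, KO4 and WT4, against 503, 540, 541 and 559 CPM in KO1, WT1, WT2 and WT3. WT4, the highest for Ier3, was the lowest of the 12 for Atf3. Atf3 fell by 0.56 on the log2 scale in batch 2 over batch 1 (SE 0.14, edgeR adjusted p = 0.0122) and by 0.36 in batch 3 over batch 1 (SE 0.13, edgeR adjusted p = 0.0296).

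**Figure D2:**
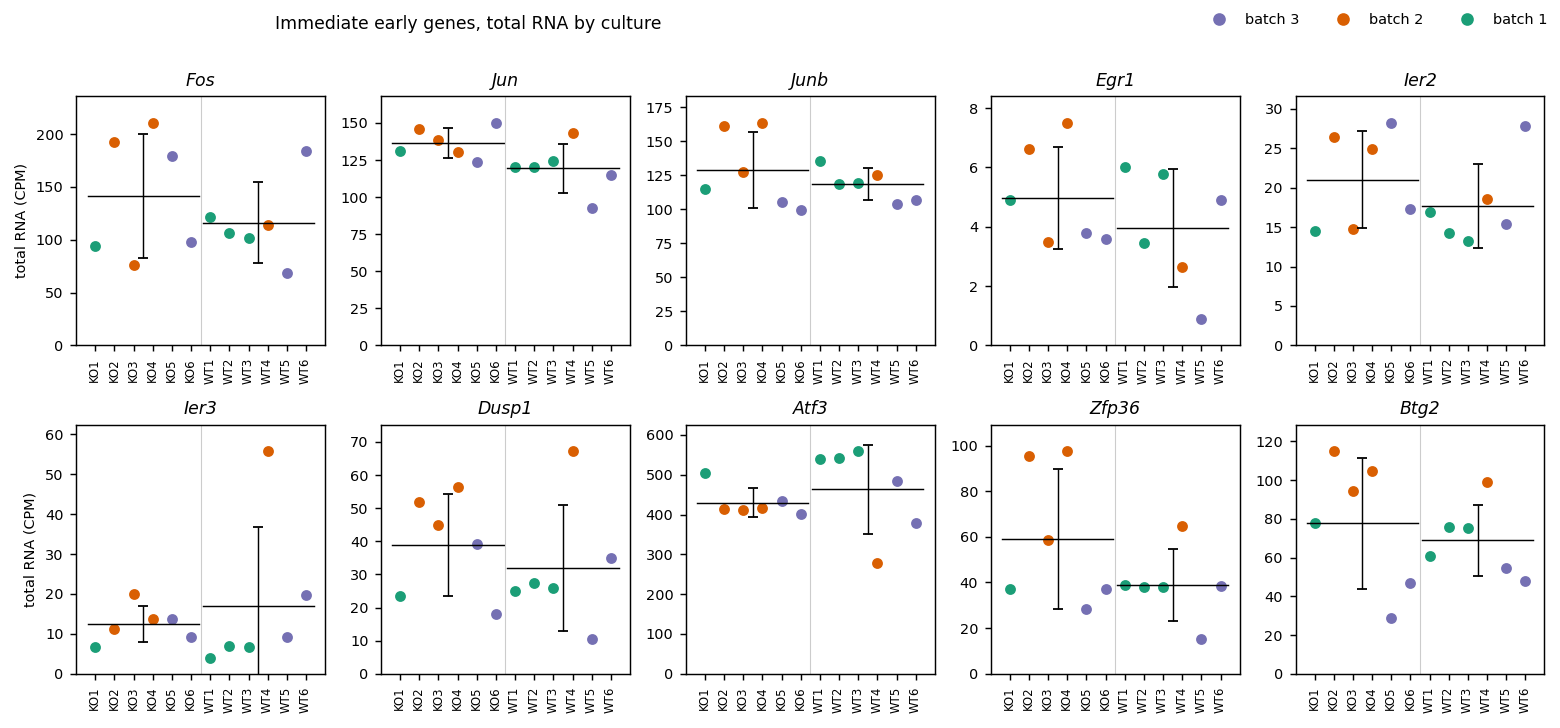
Total RNA level in CPM (vertical axis, from 0) of each immediate early gene in the 12 cultures, KO left of WT, coloured by batch; lines are means and bars 1 SD over the 6 cultures of a genotype. Batch 2 cultures are the highest for Btg2, at 94.3 to 115 CPM, while Fos is highest in KO4, KO2, WT6 and KO5 across batches.

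Part of this rests on WT4. Without that culture, 1 member remained called in batch 2 over batch 1, Ier3 (log2 1.42, edgeR adjusted p = 0.0294). Dusp1 was then at log2 0.91 (edgeR adjusted p = 0.219), Atf3 at -0.31 (0.0924), Zfp36 at 1.04 (0.0625) and Btg2 at 0.66 (0.0506), with adjusted p-values in brackets. Leaving out KO1, KO2, WT1, WT2 or WT3 left 3 calls each. Over the 17 alternatives Atf3 was called in 16, Zfp36 in 14, Btg2 in 12 and Dusp1 in 8. For batch 3 over batch 1 the count was 1, Btg2, without KO5, WT1, WT2 or WT3, and Ier3 and Atf3 were also lost without KO6 (edgeR adjusted p = 0.0505 and 0.0682) or WT6 (0.0925 and 0.0967). Dusp1 was lost in batch 3 over batch 2 without KO6 (log2 -0.95, edgeR adjusted p = 0.0502) or WT4 (log2 -0.94, edgeR adjusted p = 0.0787). The calls of Btg2, Zfp36 and Junb in batch 3 over batch 2, of Btg2 in batch 3 over batch 1 and of Ier3 in batch 2 over batch 1 were kept in all 17 alternatives run for each. Beside these shifts, monocyte markers (5 of 5 in the tables) summed to 119 to 166, 211 to 531 and 108 to 149 CPM in batches 3, 2 and 1, and macrophage markers to 15356 to 25229, 27814 to 49203 and 21977 to 29193 CPM. The part of cell composition in the batch differences was not tested, and sex cannot be told apart from batch 3.

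Fos, Ier2, Egr1 and Jun were not called between any pair of batches, while Junb was. Fos was high in KO4, KO2, WT6 and KO5, at 210, 193, 184 and 179 CPM, and had 68.2 to 121 CPM in the other 8 cultures. Ier2, a nuclear factor of the early response, was high in the same 4 cultures, at 24.9, 26.4, 27.8 and 28.2 CPM, with 13.2 to 18.5 CPM in the others. These cultures come from both genotypes and from batches 2 and 3. Egr1, the zinc finger factor that often peaks first after a stimulus, was the least counted of the 10, with 6 to 73 total RNA counts per library. Egr1 had 3.48, 4.35 and 7.50 CPM in KO and 0.91, 4.18 and 6.03 CPM in WT cultures, the lowest being WT5, where Fos, Jun, Dusp1 and Zfp36 were also the lowest of all 12. Junb was called lower in batch 3 than in batch 2 (log2 -0.47, SE 0.11, edgeR adjusted p = 0.00263), at 105, 99.4, 104 and 106 CPM in KO5, KO6, WT5 and WT6 against 161, 127, 163 and 125 CPM in KO2, KO3, KO4 and WT4. Jun had log2 estimates from -0.18 to 0.09 between batches.

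The spread that batch and genotype left in total RNA was large for most members. The residual SD of log2 CPM was 0.64 for Ier3, 0.60 for Fos, 0.56 for Dusp1, 0.41 for Zfp36 and 0.37 for Ier2, against a median of 0.17 over 8517 genes with at least 10 CPM on average. These values were above those of 98.7%, 98.5%, 98.2%, 95.9% and 94.2% of the genes, in that order. Btg2 was at 0.27 (83.7%) and Atf3 at 0.19 (61.0%), while Jun (0.16, 41.9%) and Junb (0.15, 36.0%) varied no more than the median gene. The SE of the KO over WT change was 0.35 for Fos and 0.09 for Jun and Junb.

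Some pairs of members varied together across the 12 total RNA libraries, batch differences included. Of 28 pairs among 8 genes, 6 passed a permutation test of Pearson's r after Benjamini-Hochberg adjustment. Fos and Ier2 were left out because their values lie in separate ranges. The permutations shuffled cultures across batches, and the share of all gene pairs that would pass was not computed. Passing is therefore not shown to be particular to these genes. Ier3 and Atf3 had r = -0.93 (permutation adjusted p = 0.0014) and Spearman's rho = -0.84 (adjusted p = 0.0165). Their r was -0.83 without the 2 libraries farthest from the median of Ier3, and -0.83 with batch means subtracted. Dusp1 and Zfp36, both of which shut down the early response, had r = 0.84 (permutation adjusted p = 0.00625) and rho = 0.78 (adjusted p = 0.0278), and 0.73 and 0.57 under the same 2 changes.

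Junb and Zfp36 had r = 0.83 (permutation adjusted p = 0.00625) and rho = 0.87 (adjusted p = 0.00952), with 0.60 and 0.45 under those changes. Junb and Btg2 had r = 0.77 (permutation adjusted p = 0.0222; rho = 0.82, adjusted p = 0.0179), and 0.0070 with batch means subtracted. Zfp36 and Btg2 had r = 0.73 (permutation adjusted p = 0.0366; rho = 0.76, adjusted p = 0.0310), and -0.08 with batch means subtracted. Jun and Zfp36 had r = 0.73 (permutation adjusted p = 0.0366), with a rho of 0.38 that did not pass (adjusted p = 0.410). Values without the 2 farthest libraries were 0.69 for Junb with Btg2, 0.59 for Zfp36 with Btg2 and 0.72 for Jun with Zfp36, which had 0.61 with batch means subtracted.

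The genes most like the mean z-score of the 10 members over the 12 total RNA libraries were 8430427H17Rik, Mef2d, Klhdc3, Phf12, Casc3, Mll2, Kat2a and Eps15l1, with Pearson's r of 0.94 to 0.92. Mef2d is a MEF2 transcription factor and Kat2a and Mll2 are chromatin-modifying enzymes. With batch means subtracted the 8 most alike were Suz12, Dst, Akap11, Rock2, Amigo1, Nup98, Dip2c and Ccdc88a, with r of 0.97 to 0.92. These are descriptions over 12 libraries that share batches and depth. The mean z-score was highest in KO2 (0.96) and KO4 (0.94) and lowest in WT5 (-1.26).

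Btg2 and Atf3 had few footprints for their RNA. Footprint over total RNA, fitted as a mean over batches and genotypes, was called in 2 of 8 members, where 71.4% of all genes were called. Btg2 was at log2 -2.05 (SE 0.17, edgeR adjusted p = 9.23e-12), which is at the 2.21 percentile of 7203 genes. Atf3 was at log2 -1.001 (SE 0.10, edgeR adjusted p = 1.05e-09), at the 14.9 percentile. The other 6 lay between the 36.1 and 69.5 percentiles, from log2 -0.31 for Ier2 to 0.40 for Zfp36. Footprints were counted over coding sequence and total RNA over a region that was not stated, so ratios are more comparable between cultures for a gene than between genes.

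The 2 libraries of a culture deviated together, so a fit with the culture as a replicate block was also made. It called 4 of 8 members, where 5353 of all 7203 genes were called, so the members' share was below the background. The block added Jun (log2 0.17, edgeR adjusted p = 0.0273) and Zfp36 (log2 0.47, edgeR adjusted p = 0.00173) to Btg2 (log2 -2.05) and Atf3 (log2 -1.01).

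**Figure D3:**
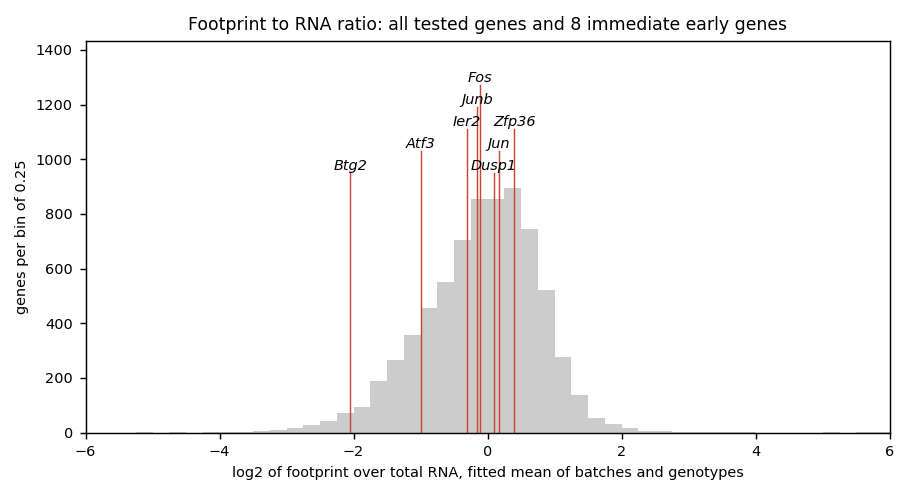
Number of genes per bin of 0.25 (vertical axis) of the fitted log2 ratio of footprints over total RNA (horizontal axis) for 7203 genes, with the 8 tested immediate early genes as red lines of arbitrary height. Btg2 at -2.05 and Atf3 at -1.001 lie in the lower tail and the other 6 near the middle.

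Counts behind the Btg2 ratio were low in places. Btg2 had 2, 0, 1 and 1 footprint counts in KO5, KO6, WT5 and WT6, 64, 17, 72 and 93 in KO2, KO3, KO4 and WT4, and 17, 59, 11 and 34 in KO1, WT1, WT2 and WT3. Batch 3 thus gives almost no information on Btg2 footprints, which were called lower in batch 3 than in batch 1 (log2 -2.003, SE 0.59, edgeR adjusted p = 0.0131) and than in batch 2 (log2 -1.63, SE 0.59, edgeR adjusted p = 0.0442). Without WT5 these were log2 -1.57 (edgeR adjusted p = 0.145) and -1.22 (0.259). The call against batch 2 was also lost without KO2, KO4, KO5, KO6, WT3 or WT4, at log2 -2.06 to -1.41 (edgeR adjusted p = 0.0510 to 0.101), with upper quartile scaling (log2 -1.59, edgeR adjusted p = 0.0508) and with DESeq2 (log2 -1.64, adjusted p = 0.104). Atf3 was far better covered outside batch 3, with 64 to 973 footprint counts, and its ratio there ranged from 0.403 to 0.641 in KO and 0.382 to 0.610 in WT cultures.

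Between batches, footprints were called in 1 of 8 members for batch 2 over batch 1, against 15.4% of all genes, in 2 of 8 for batch 3 over batch 1, against 20.8%, and in 1 of 8 for batch 3 over batch 2, against 22.5%. Besides Btg2 these were Atf3, lower in batch 2 than in batch 1 (log2 -0.59, SE 0.20, edgeR adjusted p = 0.0387), and Junb, lower in batch 3 than in batch 1 (log2 -0.71, SE 0.23, edgeR adjusted p = 0.0239). The Atf3 call was lost without KO3, WT3, WT4 or WT6, at log2 -0.52, -0.45, -0.32 and -0.59 (edgeR adjusted p = 0.0647, 0.127, 0.416 and 0.0577), and with DESeq2 (log2 -0.58, adjusted p = 0.103). The Junb call was lost without WT5 (log2 -0.66, edgeR adjusted p = 0.118). Dusp1, Zfp36 and Btg2, whose RNA rose in batch 2 over batch 1, were not called in footprints, at log2 -0.28 (SE 0.34), -0.15 (SE 0.22) and -0.37 (SE 0.25) for batch 2 over batch 1.

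The footprint to RNA ratio of 5 of 8 members was lower in every batch 2 culture than in any batch 1 culture, where 18.1% of all 7203 genes were. The 5 were Jun, Junb, Dusp1, Zfp36 and Btg2. The ratio of Zfp36 was 0.536, 0.835, 0.729 and 0.991 in KO2, KO3, KO4 and WT4 of batch 2, against 1.49, 2.14, 2.71 and 1.65 in KO1, WT1, WT2 and WT3 of batch 1. For Dusp1 it was 0.417, 0.742, 0.487 and 0.561 in batch 2, against 1.18, 1.22, 2.93 and 1.70 in batch 1, in the same order of cultures. For Btg2 it was 0.157, 0.188, 0.189 and 0.273 in batch 2, against 0.356, 0.494, 0.468 and 0.464 in batch 1. Fos, Ier2 and Atf3 overlapped between these batches.

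Any difference of this ratio between the 3 batches was tested first. Of 8 members, 1 passed, Btg2 (edgeR adjusted p = 0.0411), where 18.8% of all genes passed. With the culture as a replicate block 5 passed, Btg2, Dusp1, Jun, Junb and Zfp36 (edgeR adjusted p = 0.00576, 2.22e-06, 0.00534, 0.0245 and 8.72e-05). That block also raised the calls over all 7203 genes, from 1353 to 2533. Batch 2 over batch 1 was tested after the ratios had been seen. It was called in 3 of 8, against 16.7% of all genes: Zfp36 at log2 -1.10 (SE 0.36, edgeR adjusted p = 0.0380), Btg2 at -0.93 (SE 0.29, adjusted p = 0.0277) and Junb at -0.54 (SE 0.18, adjusted p = 0.0441). Dusp1 was at log2 -1.41 (SE 0.59, edgeR adjusted p = 0.107). With the culture as a replicate block Dusp1 passed, at log2 -1.48 (SE 0.24, edgeR adjusted p = 3.62e-06). The fit with that block called 4 of 8 members and 2280 of all 7203 genes, against 1201 genes without it. In the fit without the block, the median of the 8 was log2 -0.58, against -0.03 over all genes.

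Over the alternatives run, Junb was called in 5 of 19, and the calls lost include 11 of the 12 that leave out 1 culture, at log2 -0.61 to -0.47 (edgeR adjusted p = 0.0567 to 0.185), and upper quartile scaling (log2 -0.53, edgeR adjusted p = 0.0533). Btg2 was called in 12 of 18 and Zfp36 in 12 of 19. Without KO1, KO2, WT2 or WT4 no member was called for batch 2 over batch 1 in the fit without the block, and 1 was called without WT1 (Btg2) or WT3 (Zfp36). For the test over 3 batches the count was 0 without KO1, KO2, KO4, WT1, WT2, WT3 or WT4. Reads with several alignments made up 49.6% to 60.1% of RPF reads in batch 2, against 59.3% to 80.1% in batch 1, and their part in the ratios was not tested.

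**Figure D4:**
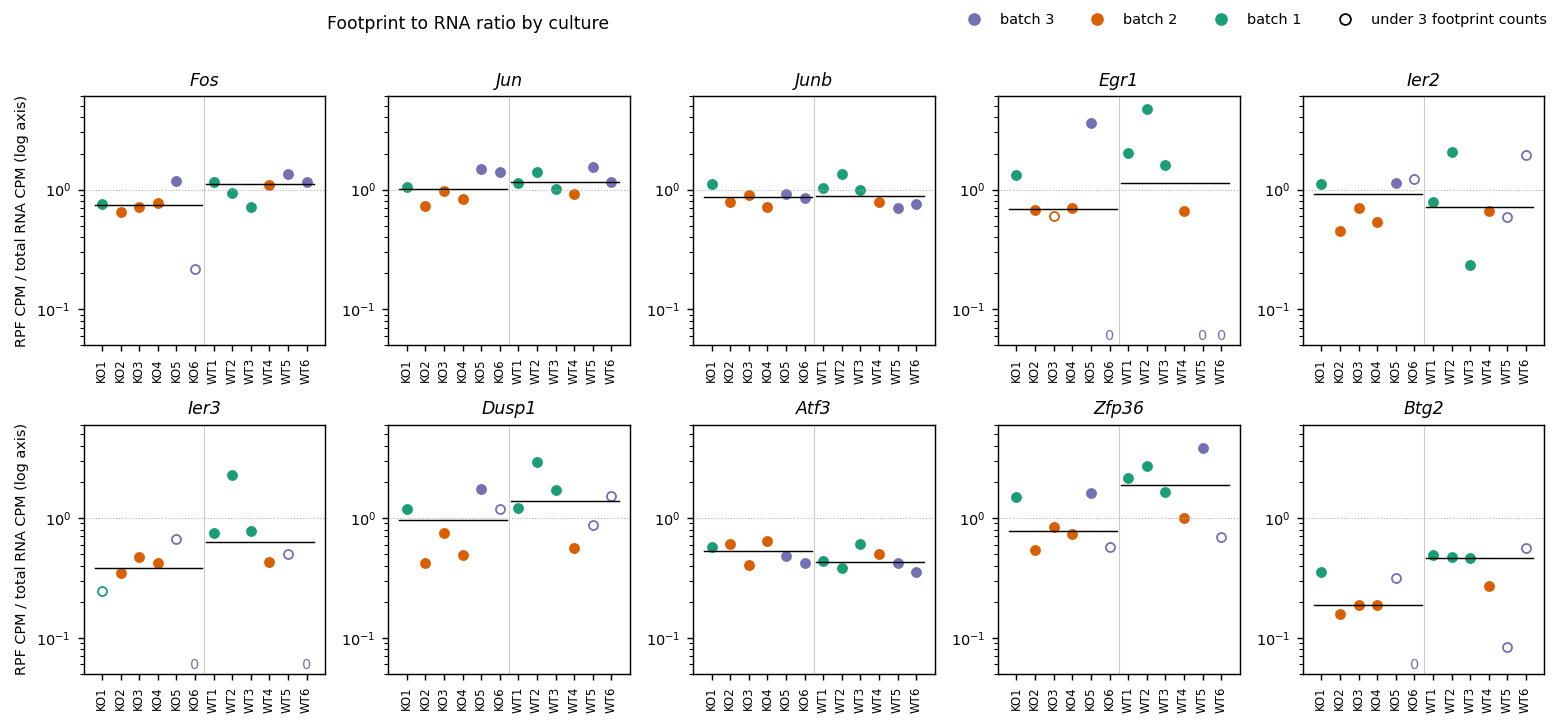
Ratio of footprint CPM to total RNA CPM (vertical log axis; the dotted line is 1) in the 12 cultures, KO left of WT, coloured by batch, with the median of each genotype as a line. Open points rest on under 3 footprint counts and 0 marks no footprint; batch 2 points of Zfp36, Dusp1 and Btg2 lie below those of batch 1.

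Other genes of the same response were read from fixed lists, in the main fit alone. The dependence of their calls on single cultures such as WT4 was not tested. Over all genes in total RNA, batch 2 over batch 1 called 2572 of 10942 genes, and 1345 of 11043 without WT4. For KO over WT, 0 of 14 other early transcription factors, 0 of 27 early feedback genes, 0 of 32 upstream kinases and factors, 0 of 14 heat shock genes, 0 of 21 genes of the mRNA decay machinery and 0 of 13 short-lived cytokine mRNAs were called in total RNA. Their median log2 changes lay between -0.19 and 0.09. In batch 2 over batch 1, the cytokine mRNAs, many of which tristetraprolin is known to bind, had 8 called higher and 1 lower of 13, with a median of log2 1.04, where 23.5% of all genes were called in either direction. They included Ptgs2, the inducible cyclooxygenase (log2 2.83), the chemokines Cxcl2 (2.04) and Cxcl10 (1.58), and Il1b (1.23). In batch 3 over batch 2, 7 of 13 were called lower and 2 higher, against 49.2% of all genes in either direction. Il1b had log2 -5.23.

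Early feedback genes split in batch 2 over batch 1, with 6 of 27 called higher and 6 lower and a median of log2 0.02. Socs3, an inhibitor of cytokine receptor signalling, was at log2 3.20, and Trib1 at 1.21, while Rgs1 (-1.24) and Gadd45a (-1.23) were lower. Of 14 other early transcription factors 3 were higher and none lower: Klf4 (0.73), Klf10 (0.47) and Jund (0.46). Heat shock genes, a list of HSF1 targets that also holds Hsf1 itself, had 2 of 14 called higher and 5 lower. The 2 higher were Hsf1 (0.46) and Hsp90ab1 (0.41), and the largest falls were those of Hspa4 (-0.70) and Hsph1 (-0.69). Of 32 upstream kinases and factors 4 were called higher and 4 lower, and of 21 decay genes 2 and 2. The shares of the early transcription factors, kinases and decay genes lay near the 23.5% of all genes.

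For the ratio of footprints to RNA in batch 2 over batch 1, no other early transcription factor of 8 was called, and 1 of 19 feedback genes was called, higher. Of 12 heat shock genes 5 were called higher and 1 lower, and of 7 cytokine mRNAs 1 was called lower, where 16.7% of all genes were called. For KO over WT no gene of these lists was called in footprints or in the ratio.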

How the data were processed

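The authors deposited whole-number read counts per gene, not normalized, for 12 RPF libraries (coding sequence, per the file names) and 12 total RNA libraries. Per the submitters' processing notes, which give no role or order, the build was mm10 and the tools were TopHat2 2.1.0, Bowtie 1.1.2, Cufflinks 2.2.1, Trim Galore, HTSeq, DESeq2 and DESeq. Strandedness is not given in the sources used here. Library sizes and tests leave out the 5 HTSeq summary lines, and genes absent from an RPF table were taken as 0. The authors also deposited a DESeq2 table with log2 fold changes and p-values, per the file headers, used here as the authors' values.

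The main test was edgeR 4.0.16 in R 4.3.3: TMM scaling, filterByExpr by genotype (minimum count 10), its quasi-likelihood F-test with robust fitting, and p-values adjusted by Benjamini-Hochberg over all genes tested, with 0.05 as the threshold. RPF and total RNA were fitted separately with batch and genotype. The ratio was tested in a model over 24 libraries with molecule by batch and molecule by genotype. Log2 CPM used a prior count of 2, and permutation tests 100000 two-sided resamples.

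The members, lists, tests and alternatives were chosen with earlier results of these data known; batch 2 over batch 1 of the ratio was added after its values were seen. All 10 members are named, the 8 genes most like their mean, and at most 4 called genes per list. The RPF and total RNA libraries with the same label number were paired. Their deviations from genotype means correlated in all 12 cultures (0.219 to 0.558), and a shared batch can add to this. The own library matched best in 9 of 12 cultures, but not in KO6, WT2 and WT6. Like-numbered KO and WT cultures were not treated as pairs, since some lay in different batches. In total RNA, KO5 with WT5 (0.868) and KO6 with WT6 (0.863) nevertheless matched best. On simulated data with 2-fold changes, the fits called 96.0% of changed genes for KO over WT in total RNA (10875 genes). They called 65.9% in RPF (7030 genes) and 66.8% in the ratio (7025 genes). These rates are for genes drawn at random and were not computed for the members. In total RNA, Ier3, Fos, Dusp1, Zfp36 and Ier2 had residual SDs of 0.64 to 0.37, against a median of 0.17. A 2-fold change in these would be missed more often. Alternatives were DESeq2 1.42.0, RLE and upper quartile scaling, no filter, a minimum count of 30, no batch term, replicate blocks, leaving out KO6 with WT6, batch 3, or each culture in turn. Floors of 3 counts cover counting error only.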

Additional observations from a re-analysis of the deposited data

Results flagged for a closer look

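Log2 CPM values of a member within the 6 cultures of a genotype were checked for a culture far from the others by Dixon's test (critical value 0.625). The flags hold on that log2 scale, while the values below are given as CPM. Of 36 sets of values 5 had such a culture, and chance gives about 1 in 20. Atf3 total RNA in KO1 was 503 CPM, against 435 CPM in the nearest KO culture; KO1 is the only KO culture of batch 1, where all 3 WT cultures were higher still. Zfp36 total RNA in WT5 was 15.4 CPM, against 38.0 CPM in the nearest WT culture. Zfp36 footprints in KO6 were 21.2 CPM, against 45.5 CPM, and rest on 2 counts. Btg2 footprints in KO6 were 0 CPM, against 9.11 CPM, where 3 counts would be 33.0 CPM. Btg2 footprints in WT5 were 4.58 CPM, against 26.8 CPM, and rest on 1 count.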

How the results depend on the processing

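No fitted value followed for a single member changed sign under the alternatives listed above. Within batches, the KO minus WT difference of Ier3 in total RNA was 0.19 in batch 1, opposite in sign to the fitted log2 -0.81. For members called in batch 2 over batch 1, total RNA gave 5, then 3 with no filter and 1 to 5 leaving out each culture. Footprints gave 1, then 3 with no filter, 0 without KO6 and WT6, and 0 to 1. With DESeq2 the 1 was Egr1, not Atf3. In batch 3 over batch 1, total RNA gave 3 and then 1 to 4 leaving out each culture; footprints gave 2, then 1 at a minimum count of 30 and 1 to 3. In batch 3 over batch 2, footprints gave 1, then 0 with DESeq2, 0 without KO6 and WT6, and 0 to 2; with upper quartile scaling or a minimum count of 30 the 1 was Jun, not Btg2. KO over WT gave 0 except 1, Ier3, in footprints with no filter. The ratio between batches gave 1, then 0 with no filter, 5 with the culture as a replicate block, 3 without KO6 and WT6, and 0 to 3; its batch 2 over batch 1 gave 3, then 0 with no filter and 0 to 3. Footprint over total RNA gave 2, then 4 with DESeq2, upper quartile scaling, no filter, the culture block, or without KO6 and WT6, and 2 to 4. With the shared KO and WT number as a replicate block, 0 members were called by genotype in total RNA, footprints or the ratio. Of all genes, 0, 3 and 1 were called. Same-numbered KO and WT libraries correlated at 0.074 to 0.868 in total RNA and 0.073 to 0.328 in RPF. In each, 2 of 6 matched their own number best. For single members' values, 129 alternatives other than leaving out a culture gave the same call, 15 lost it and 4 moved; leaving out a culture gave the same call 223 times and lost it 65 times. The cause was not tested. RPF depth in batch 3 limits Btg2, Ier3 and Egr1 footprints most.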
